A study of Mus musculus with 8 samples.

Results

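The 46 genes described here encode nucleolar proteins and ribosome assembly factors. They were taken as a list of gene symbols and not selected by their measured values, although earlier results of these data were known. Each symbol was matched to 1 of the 27179 Entrez Gene identifiers in the count table. Gene positions below are those of RefSeq on GRCm38.p6. RNA had been sequenced from sorted bone marrow B cell progenitors of mice aged 7 to 10 weeks, with 2 libraries in each of 4 groups. Pre-proB, proB and preB cells follow one another in early B cell development, and all 3 came from Erg fl/fl mice, in which both copies of the ETS transcription factor gene Erg carry loxP sites and no Rag1Cre allele is present. The fourth group was pre-proB cells of Rag1CreT/+;ErgΔ/Δ mice, called Erg-deficient below, in which Cre made from the Rag1 locus removes the floxed part of Erg in lymphoid progenitors. These mice therefore differ from the controls in the Cre allele as well as in Erg. The cells of each population had been sorted independently from 2 mice of each genotype, and which mouse gave which library is not stated, so the tests measure the spread between libraries.

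Ribosome biogenesis starts in the nucleolus, where RNA polymerase I transcribes the repeated ribosomal DNA into a long precursor RNA. Small nucleolar ribonucleoproteins (snoRNPs) of the box C/D class methylate this precursor and those of the box H/ACA class turn selected uridines into pseudouridines, while helicases, chaperones and scaffold proteins fold it, cut it and join it with ribosomal proteins into the small and the large subunit. Growing and dividing cells make many ribosomes, and genes of this pathway are well known targets of the transcription factor Myc. In the bone marrow, proB cells divide under interleukin-7, and preB cells leave the cell cycle by the time they rearrange their light chain genes.

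Each library held between 15565381 and 18457632 counts, and replicates differed by more than sampling noise (chi-square over its degrees of freedom, 3.82 to 8.29). Levels are given as CPM, counts scaled to library size after TMM normalization (trimmed mean of M values). The Erg fl/fl pre-proB libraries held Erg itself at 69.8 and 25.1 CPM and the Erg-deficient ones at 2.49 and 2.58, a log2 fold change of -4.23 (adjusted p = 0.0250, edgeR). A list of 11 B-lineage genes, among them Ebf1 and Pax5, summed to 2433 and 1301 CPM for the Erg fl/fl pre-proB, 5674 and 5442 for the proB, 6671 and 7288 for the preB and 694 and 799 for the Erg-deficient pre-proB libraries. Over this list replicate 1 of the Erg fl/fl pre-proB cells stood above replicate 2 by a median ratio of 2.82, whereas over the 46 ribosome biogenesis genes the same ratio had a median of 1.01 and lay between 0.832 and 1.28. The pre-proB gate also held much RNA of plasmacytoid dendritic-like genes. Those 8 genes, Siglech among them, summed to 13746 and 14697 CPM for Erg fl/fl and 15709.9 and 16219.8 for Erg-deficient pre-proB, against 526 and 569 for proB and 408 and 425 for preB libraries. All 8 were called lower in proB than in pre-proB cells, and none was at 0 in any group. T-like genes (8, called lower for 7) summed to 689 and 855 CPM for pre-proB and 94.6 and 104 for proB, and NK-like genes (8, all called lower) to 201 and 199 and 8.53 and 10.4. The sort gate excluded cells positive for NK1.1 or CD11c. The part of such cells in the stage and genotype differences below was not tested. In bulk RNA of this kind, fewer cells of a type and less RNA per cell cannot be told apart.

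All 46 ribosome biogenesis genes passed the filter, 0.5 CPM or more in 2 or more libraries. Their summed level was 3665 and 3576 CPM in pre-proB cells of Erg fl/fl mice, 7772 and 8332 CPM for the proB and 3895 and 4118 CPM for the preB libraries. In the Erg-deficient pre-proB libraries it was 3419.8 and 3495 CPM. Without Ncl and Npm1, the genes of most counts, the other 44 summed to 2554 and 2523 CPM for pre-proB, 4606 and 4906 for proB, 2648 and 2757 for preB and 2428 and 2454 for Erg-deficient pre-proB cells. In 45 of the 46 genes the proB cells had the highest mean of the 4 groups, and in 44 both proB libraries stood above all 6 others. The share of all genes with these 2 patterns was not counted. A nearby pattern, called higher in proB than in pre-proB and lower again in preB cells, was met by 17.4% of the genes tested. 

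**Figure D1:**
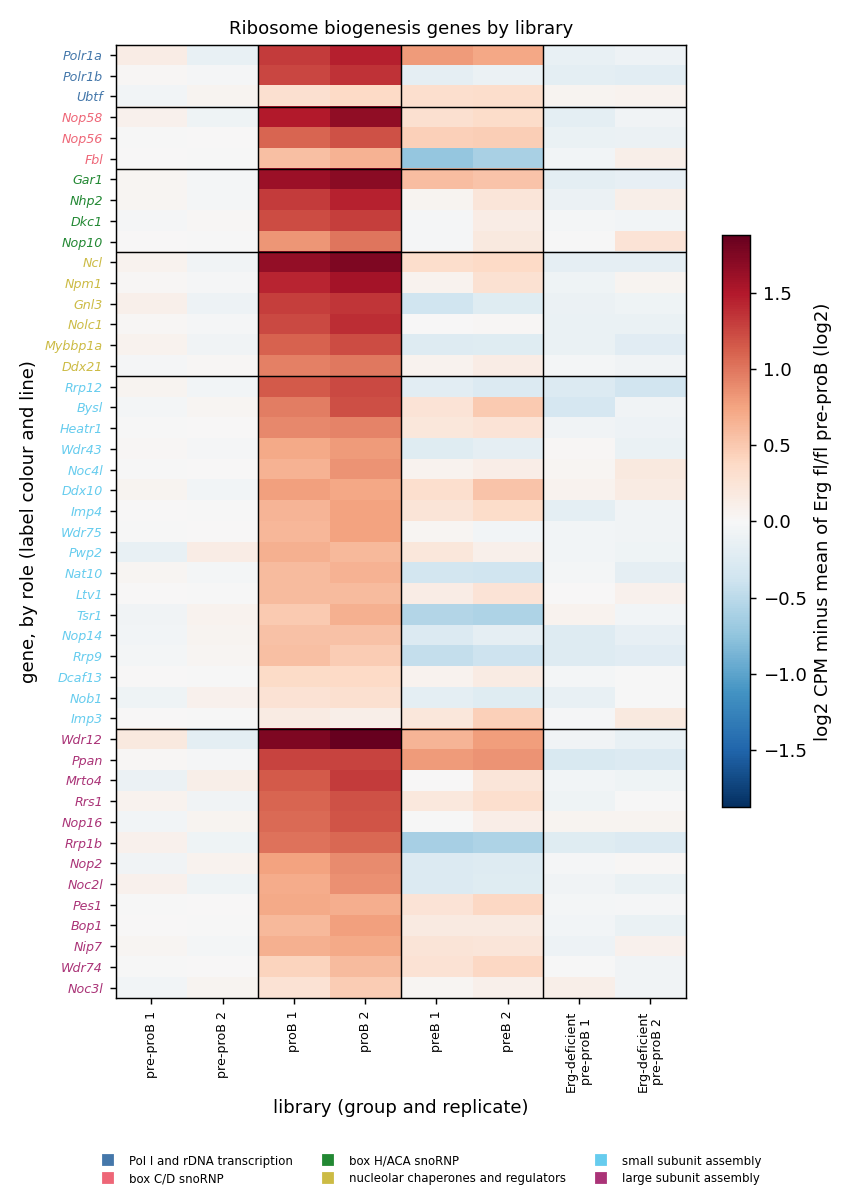
Each row is 1 of the 46 genes, grouped by role, and each column 1 of the 8 libraries. Colour gives log2 CPM minus the mean of the 2 Erg fl/fl pre-proB libraries, red for higher and blue for lower. The proB columns are red in nearly every row, the preB columns are mixed, and the Erg-deficient pre-proB columns stay near the colour of the Erg fl/fl pre-proB columns.

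Because these genes moved together, the sequences around their transcription start sites are shown for those that carry a CACGTG E-box, the letters Myc binds with Max, or CCGGAAGT, a sequence that ETS factors bind. Imp4 and Nop2 are shown because their letters lie before the start, and this choice was made after their values were seen. Promoter windows of 250 bases before and 50 bases after the start came from RefSeq (GRCm38.p6), which held 49 windows for 40 of the 46 genes. Npm1, Fbl, Bop1, Rrs1, Rrp12 and Dcaf13 have no entry there. The letters CACGTG, the same on both strands, occurred in windows of 7 of the 40 genes (17.5%), compared with 11.6% of 10412 genes tested in the stage comparison and 8.09% of all 27025 genes in the table. Imp4 and Nop2 hold them before the start, at 121 and 60 bases upstream. Pes1, Wdr43, Tsr1, Ltv1 and Mybbp1a hold them within the first 50 bases after it, with first bases at positions 3, 18, 25, 29 and 41. Stretches of 30 bases, for these and for 4 of the others, run 5′ to 3′ on the strand of the gene, with the E-box in capitals.
Imp4, chr1:34439696-34439725, plus strand: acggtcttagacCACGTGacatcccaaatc
Nop2, chr6:125131811-125131840, plus strand: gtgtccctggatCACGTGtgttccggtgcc
Pes1, chr11:3963965-3963994, plus strand: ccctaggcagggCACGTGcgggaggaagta
Wdr43, chr17:71616220-71616249, plus strand: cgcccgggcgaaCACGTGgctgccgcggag
Tsr1, chr11:74898092-74898121, plus strand: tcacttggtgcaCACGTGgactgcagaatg
Mybbp1a, chr11:72441347-72441376, plus strand: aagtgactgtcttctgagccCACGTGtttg

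The ETS letters CCGGAAGT, searched on both strands, were chosen after the levels of the genes had been seen. They occurred in windows of 10 of the 40 genes (25.0%), compared with 9.08% of the genes tested and 4.31% of all genes. The 10 genes were Gar1, Heatr1, Ltv1, Nhp2, Nip7, Noc2l, Ppan, Pwp2, Tsr1 and Wdr74. CCGGAAGT shares no base with CACGTG where both occur, in Tsr1 and Ltv1. Windows are shown for the 5 of them whose levels are given for the 3 Erg fl/fl stages below, with the 8 letters in capitals.
Heatr1, chr13:12395348-12395377, plus strand: gtagtgagaagCCGGAAGTtcctatgaggc
Nhp2, chr11:51619739-51619768, plus strand: cacttgaaaacCCGGAAGTgatgtcggagg
Noc2l, chr4:156236002-156236031, plus strand: gcattctgggcCCGGAAGTgcggcgcacgc
Ppan, chr9:20888182-20888211, plus strand: gccgcgtggcaCCGGAAGTtggccacgtaa
Tsr1, chr11:74898068-74898097, plus strand: ctcgggtccgcCCGGAAGTagagttcactt

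Of the other motifs searched on both strands, those of NRF1 and ZBTB33, each as a palindrome of 10 letters, occurred in no window of the 40 genes and in 2.33% and 1.12% of the genes tested. TATAAA occurred in windows of 3 of the 40, Dkc1, Pes1 and Ppan (7.50%), against 8.88% of the genes tested. Median GC content was 59.3% over the 49 windows and 60.3% over those of the genes tested. A match describes the letters in the window and does not show binding. The 7 genes with an E-box had a median log2 fold change from pre-proB to proB cells of 0.72, between 0.60 and 1.19, and the 33 without one a median of 0.98. From proB to preB cells the same medians were -0.92 and -0.80. The 10 genes with CCGGAAGT had medians of 0.75 at the first and -0.55 at the second step, and the 30 without it 0.96 and -0.87. 

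The comparison of proB with pre-proB cells asks how the pathway changes as cells enter the dividing, B-committed stage. Of the 46 genes, 45 were higher in proB cells at an adjusted p below 0.05 (quasi-likelihood F-test of edgeR, Benjamini-Hochberg adjusted over 13650 genes), and none was lower. Over all genes tested, 36.2% were called higher and 36.8% lower. The median log2 fold change of the 46 genes was 0.88, a 1.85-fold rise, beside 0.00 over all genes tested, and 20 of them were called at least 2-fold higher, as were 15.6% of all genes. The 2 proB libraries lay above the 2 pre-proB libraries in all 46 genes, as they did in 42.8% of all genes. Leaving out 1 of the 4 proB and pre-proB libraries left 43 to 45 of them called.

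Of the genes that transcribe ribosomal DNA all 3 rose, by unequal amounts. Polr1a (Entrez Gene 20019 on chromosome 6 from 71909053 to 71979435), the largest subunit of RNA polymerase I, went from 32.6 and 26.6 CPM for pre-proB to 73.1 and 81.3 CPM for proB, a log2 fold change of 1.40 (SE 0.0962, adjusted p = 2.28e-06, edgeR). Polr1b, its second large subunit, went from 26.2 and 25.7 to 62.0 and 66.3 CPM. Ubtf (Entrez Gene 21429 on chromosome 11 from 102304560 to 102323649), which binds along active ribosomal DNA and keeps it open for the polymerase, was already at 232 and 247 CPM for pre-proB and reached 294 and 309.6 for proB cells. Its log2 fold change of 0.35 (SE 0.0685, adjusted p = 0.00151, edgeR) was smaller than those of the polymerase subunits, and its 95% interval of 0.20 to 0.51 did not meet that of Polr1a, 1.18 to 1.62.

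All 7 snoRNP proteins rose. Among the box C/D proteins, the scaffold protein Nop58 (Entrez Gene 55989 on chromosome 1 from 59684961 to 59711510) stood at 87.4 and 77.6 CPM for pre-proB and 231 and 261 for proB libraries, a 3.02-fold rise. Nop56 (Entrez Gene 67134 on chromosome 2 from 130274367 to 130279313), the other scaffold protein of the particle, went from 122 and 124 to 263 and 281 CPM. The methyltransferase Fbl (Entrez Gene 14113 on chromosome 7 from 28168893 to 28179269) went from 114 and 111 to 166 and 177 CPM. The 3 proteins sit in 1 particle, and their log2 fold changes were 1.59 (SE 0.0798) for Nop58, 1.16 (SE 0.0623) for Nop56 and 0.62 (SE 0.0627) for Fbl, with 95% intervals that did not overlap. In the box H/ACA particle, Dkc1 (Entrez Gene 245474 on chromosome X from 75095854 to 75109776), the pseudouridine synthase dyskerin, rose from 75.2 and 76.9 to 178 and 187 CPM, 2.43-fold (adjusted p = 5.77e-07, edgeR). Nhp2 (Entrez Gene 52530 on chromosome 11 from 51619773 to 51623718), a core protein of the same particle whose ETS letters are shown above, rose from 33.1 and 31.8 to 80.5 and 87.8 CPM. The other two core proteins rose by log2 fold changes of 1.67 (Gar1) and 0.93 (Nop10).

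The nucleolar chaperones and regulators were the group with the most counts, and all 6 rose. Ncl (Entrez Gene 17975 on chromosome 1 from 86344719 to 86359455), nucleolin, which binds the precursor RNA and nucleolar chromatin, went from 574 and 528 CPM for pre-proB to 1733 and 1861 for proB libraries, a change of 1.72 on the log2 scale (SE 0.0767, adjusted p = 1.77e-07, edgeR). Npm1 (Entrez Gene 18148 on chromosome 11 from 33152498 to 33164142), nucleophosmin, a histone and assembly chaperone, went from 537 and 525 to 1433 and 1565 CPM, a change of 1.52 on the log2 scale (SE 0.0905). In both genes each proB library exceeded every library of the other groups. Gnl3 (nucleostemin, a nucleolar GTPase) and Nolc1 (a snoRNP chaperone) rose by 1.33 each on the log2 scale, Mybbp1a by 1.19 and the RNA helicase Ddx21 by 0.98. Npm1 has processed pseudogenes, and how reads that fit several places were counted is not stated, so its counts may be shared.

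Of the 17 small subunit assembly factors 16 were called higher, with a median log2 fold change of 0.64, the lowest of the role groups. Wdr43 (Entrez Gene 72515 on chromosome 17 from 71616178 to 71659031), a component of the complex that couples ribosomal DNA transcription to processing, went from 98.1 and 95.3 to 158 and 168 CPM. Heatr1 (Entrez Gene 217995 on chromosome 13 from 12395375 to 12438893), a large helical-repeat protein of the same complex, went from 70.2 and 70.7 to 132 and 135 CPM. Their log2 fold changes were 0.77 (adjusted p = 4.58e-06) and 0.94 (adjusted p = 9.41e-07) in edgeR. The largest change in the group was that of Rrp12, an export factor of pre-ribosomes, at 1.21, followed by Bysl at 1.11. Imp3 (Entrez Gene 102462 on chromosome 9 from 56937500 to 56938398), which anneals a guide RNA to the precursor early in processing, stood at 48.8 and 47.9 CPM for pre-proB and 54.0 and 52.2 for proB, the smallest log2 fold change of the 46, 0.15 (95% interval -0.04 to 0.34, adjusted p = 0.134, edgeR). Its partner Imp4, whose upstream E-box is shown above, had a log2 fold change of 0.72. Among the rest, Noc4l and Nop14, which act as a pair, had 0.77 and 0.57, the processing factors Wdr75 and Pwp2 0.70 and 0.64, the helicase Ddx10 0.77, Nat10 0.64, Ltv1 0.61, Tsr1 0.60, Rrp9 0.53 and Dcaf13 0.39 on the same scale. Nob1, the endonuclease that makes the final cut of small subunit RNA, was called at 0.30 (adjusted p = 0.0105, edgeR) but not without pre-proB replicate 1 or proB replicate 2.

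All 13 large subunit assembly factors were called higher, with a median log2 fold change of 0.83. Wdr12 (Entrez Gene 57750 on chromosome 1 from 60071361 to 60098500) had the largest rise of the 46 genes, from 18.3 and 14.2 CPM for pre-proB to 54.4 and 59.2 CPM for proB libraries, 3.55-fold (log2 fold change 1.83, SE 0.114, adjusted p = 1.24e-06, edgeR). It forms a trimeric complex with Pes1 and Bop1 that is needed for large subunit maturation. Pes1 (Entrez Gene 64934 on chromosome 11 from 3963975 to 3980004) went from 74.4 and 75.7 to 123 and 120.3 CPM and Bop1 from 58.8 and 58.2 to 89.6 and 99.5 CPM, log2 fold changes of 0.71 and 0.71. The 95% interval of Wdr12 was 1.57 to 2.09, that of Pes1 0.57 to 0.86 and that of Bop1 0.56 to 0.86. Noc2l (Entrez Gene 57741 on chromosome 4 from 156234655 to 156247616), which helps move pre-ribosomes out of the nucleolus, went from 126 and 113 to 193 and 217 CPM, a change of 0.80 on the log2 scale. Its partner Noc3l changed least in the group, by 0.39 (adjusted p = 0.00400, edgeR), a call that was lost without proB replicate 2. The other large subunit factors were called at 1.28 for Ppan, 1.06 for Rrp1b, 1.17 for Rrs1, 1.14 for Nop16, 1.25 for Mrto4, 0.83 for the RNA methyltransferase Nop2, 0.71 for Nip7 and 0.53 for Wdr74.

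**Figure D2:**
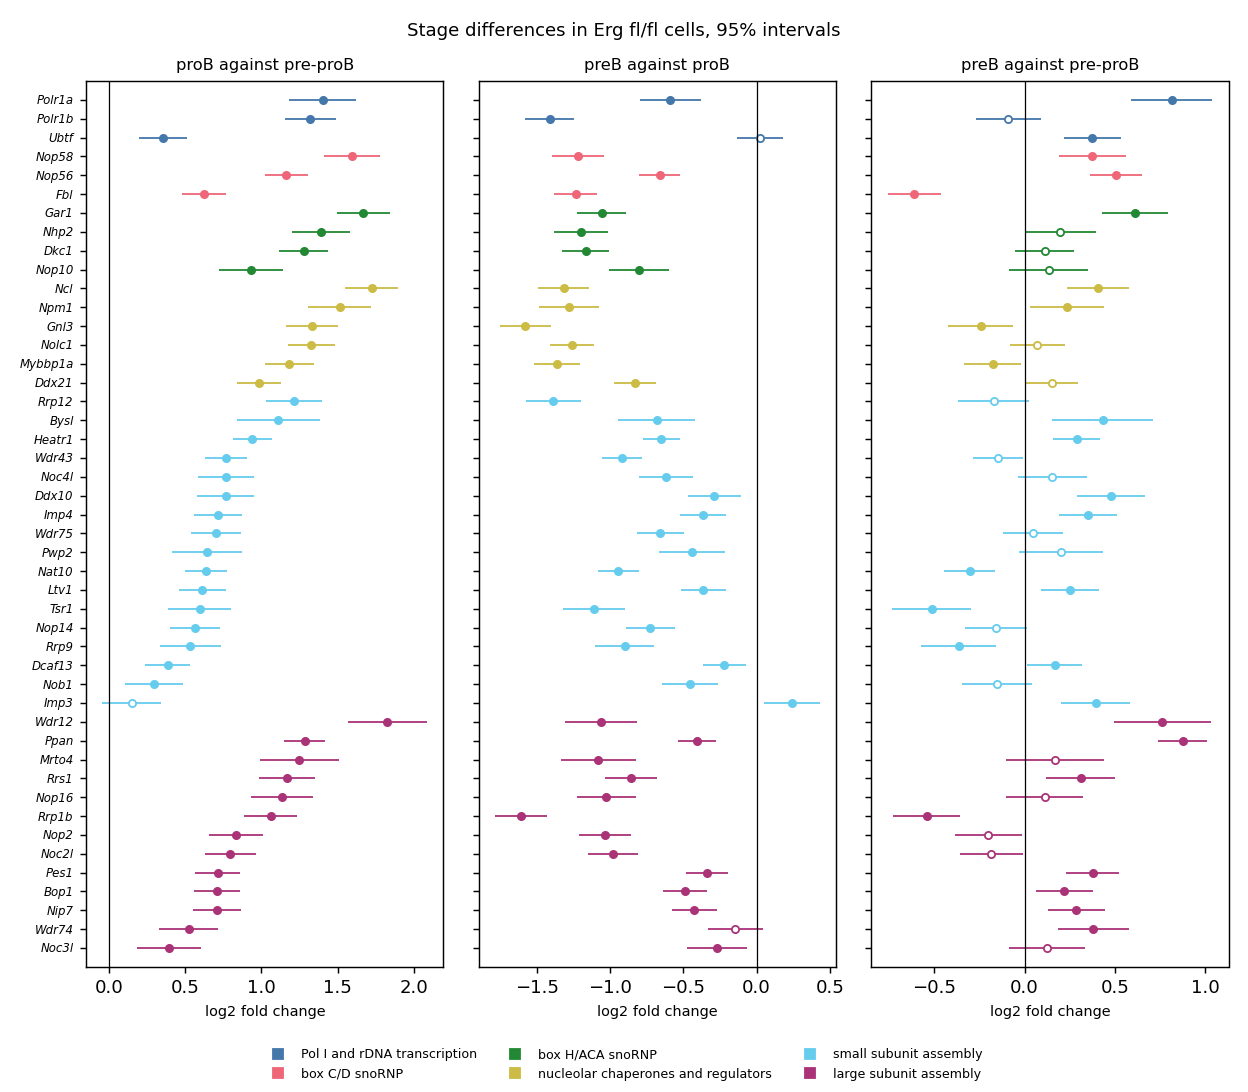
Points are log2 fold changes of the 46 genes from edgeR in the 6 Erg fl/fl libraries and bars are 95% intervals. Filled points passed an adjusted p below 0.05 and open points did not, and colours give the role groups. Points lie to the right of 0 for all 46 genes from pre-proB to proB, to the left of 0 for 44 from proB to preB, and on both sides of 0 for the net difference.

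From proB to preB cells the direction turned. Of the 46 genes, 43 were called lower in preB than in proB cells and 1 higher (edgeR, adjusted p below 0.05), where 29.9% of all genes tested were called lower and 29.0% higher. The median log2 fold change of the 46 genes was -0.84, a 1.79-fold fall, beside 0.00 over all genes tested, and 18 of them were called at least 2-fold lower, as were 11.0% of all genes. Altogether 43 of the 46 rose from pre-proB to proB and fell again from proB to preB cells, which 2370 of the 13650 genes tested did (17.4%). The proB libraries are shared by these comparisons, whose calls are therefore not independent. Without proB replicate 1 or replicate 2, 41 of the 46 genes were still called between proB and preB cells, as was the case without preB replicate 1.

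The 6 nucleolar chaperones and regulators fell by a median log2 fold change of -1.30. Ncl dropped from 1733 and 1861 CPM for proB to 689.5 and 716 CPM for preB libraries, a change of -1.32 on the log2 scale (SE 0.0758, adjusted p = 5.6e-06, edgeR). Npm1 dropped from 1433 and 1565 to 557 and 644 CPM. Gnl3 (Entrez Gene 30877 on chromosome 14 from 31012433 to 31019131) dropped from 148 and 154 to 46.6 and 52.0 CPM, 2.98-fold lower. All 7 snoRNP proteins fell as well. Nop58 went from 231 and 261 to 101 and 105 CPM, Nop56 from 263 and 281 to 167 and 169 CPM and Fbl from 166 and 177 to 68.4 and 73.5 CPM. Here Fbl and Nop58 had nearly equal log2 fold changes, -1.23 (SE 0.0641) and -1.22 (SE 0.0783), and Nop56 a smaller one, -0.66 (SE 0.0612). In the box H/ACA particle Dkc1 fell from 178 and 187 to 74.9 and 83.4 CPM and Nhp2 from 80.5 and 87.8 to 33.5 and 38.1 CPM.

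Ribosomal DNA transcription genes separated at this step. Polr1b fell from 62.0 and 66.3 to 23.0 and 24.0 CPM and Polr1a from 73.1 and 81.3 to 51.6 and 48.7 CPM, with log2 fold changes of -1.41 (95% interval -1.58 to -1.24) and -0.59 (95% interval -0.80 to -0.38). Ubtf stood at 294 and 309.6 CPM for proB and 298 and 299.6 CPM for preB libraries, so its groups overlapped. Its log2 fold change was 0.02 (95% interval -0.13 to 0.18, adjusted p = 0.803, edgeR), and the sign changed with the scaling.

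Among the large subunit factors, 12 of 13 were called lower. Rrp1b (Entrez Gene 72462 on chromosome 17 from 32036162 to 32062865), a nucleolar protein of large subunit precursors, had the largest fall of the 46 genes, from 59.9 and 62.3 CPM for proB to 19.3 and 19.9 CPM for preB libraries, 3.04-fold lower (log2 fold change -1.61, SE 0.0781, adjusted p = 3.87e-06, edgeR). Wdr12 fell from 54.4 and 59.2 to 25.2 and 27.8 CPM, while its partner Pes1 fell from 123 and 120.3 to 89.9 and 97.9 CPM. Noc2l fell from 193 and 217 to 100.3 and 102 CPM. Rrs1 and Mrto4 changed by -0.86 and -1.08 on the log2 scale, Nop16 and Nop2 by -1.03 and -1.03, and Bop1, Nip7, Ppan and Noc3l by -0.49, -0.42, -0.41 and -0.27. Wdr74 was the gene of this group that did not pass, at 41.3 and 46.3 CPM for proB and 37.1 and 40.1 for preB cells (log2 fold change -0.14, adjusted p = 0.162, edgeR).

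Of the small subunit factors 16 of 17 were called lower, with a median log2 fold change of -0.65 over the 17. Wdr43 fell from 158 and 168 to 82.4 and 85.6 CPM, below both of its pre-proB libraries, and Heatr1 from 132 and 135 to 81.6 and 84.2 CPM. The largest fall of the group was that of Rrp12, from 46.4 and 49.7 to 18.3 and 17.6 CPM, and the smallest called one that of Dcaf13, -0.22 on the log2 scale. The call of Dcaf13 was lost without proB replicate 1, proB replicate 2 or preB replicate 1, that of Ddx10 (-0.29) without proB replicate 1 or preB replicate 1, and that of the large subunit factor Noc3l without proB replicate 2 or preB replicate 1 and in DESeq2. Imp3 went the other way, from 54.0 and 52.2 CPM for proB to 56.3 and 66.1 CPM for preB libraries, with a log2 fold change of 0.24 (SE 0.0824, adjusted p = 0.0324, edgeR). The call of Imp3 was lost under 7 of 16 alternatives, among them total counts in place of TMM, DESeq2, and the fits without proB replicate 1, proB replicate 2 or preB replicate 2.

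**Figure D3:**
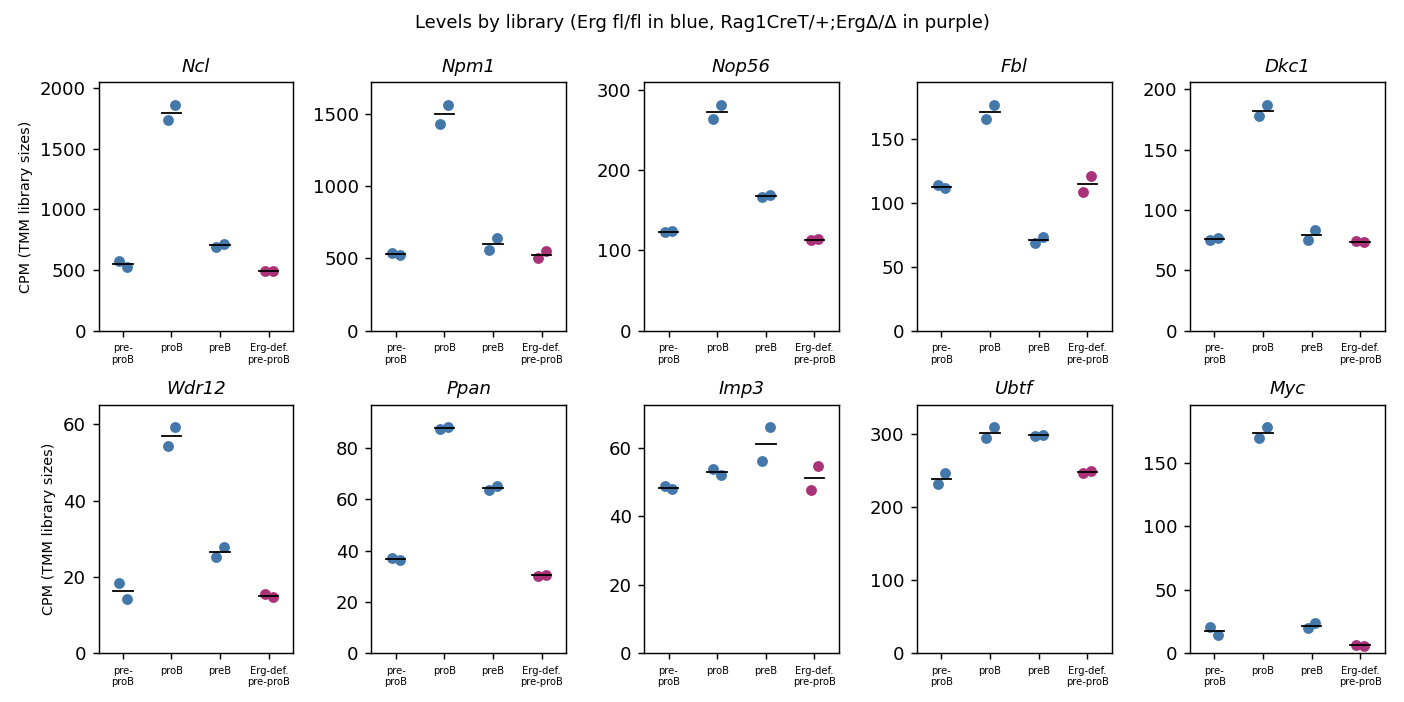
Points are CPM of single libraries in the 3 Erg fl/fl stages (blue) and in Erg-deficient pre-proB cells (purple), and horizontal bars are means of the 2 libraries. Each panel has its own axis from 0. Ncl, Npm1, Nop56, Fbl, Dkc1, Wdr12 and Ppan peak in proB cells, Fbl is lowest in preB cells, Imp3 is highest in preB cells, and Ubtf is alike in proB and preB cells. Myc, which is not among the 46 genes, is shown for comparison.

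Set against pre-proB cells, preB cells differed in both directions. Of the 46 genes, 21 were called higher and 7 lower in preB cells (edgeR), beside 36.5% and 34.1% of all genes tested, and 18 did not pass. The median log2 fold change was 0.17, beside 0.04 over all genes tested, and it was 0.066 without pre-proB replicate 1 and 0.091 without preB replicate 2. With DESeq2's size factors in place of TMM the split was 19 higher and 11 lower. It was 16 higher and 10 lower without pre-proB replicate 1, 16 and 8 without pre-proB replicate 2, 23 and 5 without preB replicate 1 and 15 and 8 without preB replicate 2. The pre-proB libraries are the ones with the high plasmacytoid dendritic-like levels given above.

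Of the 46 genes, 14 had a net log2 fold change below 0. The 7 of them called lower were Fbl, Rrp1b, Tsr1, Rrp9, Nat10, Gnl3 and Mybbp1a. Fbl went from 114 and 111 CPM for pre-proB to 68.4 and 73.5 CPM for preB libraries, a change of -0.61 on the log2 scale (SE 0.0647, adjusted p = 3.95e-05, edgeR). Rrp1b went from 31.3 and 28.0 to 19.3 and 19.9 CPM. Tsr1 (Entrez Gene 104662 on chromosome 11 from 74898080 to 74909340), a GTPase-like factor of late small subunit maturation with both motifs shown above, went from 32.3 and 35.3 to 23.0 and 22.6 CPM, with 47.3 and 53.7 CPM for proB between them in development. In each of the 7 genes both preB libraries lay below all other libraries. The margin was narrow for Mybbp1a, 134.2 CPM for preB replicate 2 against 134.8 CPM for Erg-deficient replicate 2. This order follows largely from the choice of genes called lower in preB than in pre-proB cells. The share of all genes with such an order was not counted. Rrp9 (Entrez Gene 27966 on chromosome 9 from 106477309 to 106485415), a protein of the snoRNP that guides early cuts, went from 22.5 and 23.5 CPM for pre-proB over 34.0 and 31.9 for proB to 16.8 and 17.5 CPM for preB libraries. Nat10 (Entrez Gene 98956 on chromosome 2 from 103721258 to 103762954), which acetylates small subunit RNA, went from 56.4 and 53.4 over 82.7 and 86.1 to 43.2 and 42.4 CPM. Of the 7, Gnl3 and Mybbp1a ended closest to where they began, with log2 fold changes of -0.24 and -0.18. Mybbp1a (Entrez Gene 18432 on chromosome 11 from 72441327 to 72451770), a nucleolar transcription regulator with an E-box shown above, stood at 164 and 149 CPM for pre-proB, 338 and 365 for proB and 132 and 134 for preB libraries. The call of Mybbp1a was lost under 5 of 16 alternatives, among them those without pre-proB replicate 1, preB replicate 1 or preB replicate 2, and that of Gnl3 without preB replicate 1.

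At the other end, Ppan (Entrez Gene 235036 on chromosome 9 from 20888175 to 20892179), a factor of early large subunit assembly, stayed high. It stood at 36.9 and 36.2 CPM for pre-proB, 87.6 and 88.2 for proB and 63.9 and 65.3 for preB libraries, a net log2 fold change of 0.88 (SE 0.0597, adjusted p = 2.38e-06, edgeR). Polr1a, with a net log2 fold change of 0.81, and Wdr12, with 0.76, came next, and Gar1 had 0.61. Polr1b was at 26.2 and 25.7 CPM for pre-proB and 23.0 and 24.0 CPM for preB libraries (log2 fold change -0.09, adjusted p = 0.328, edgeR). Nop56 and Nop58 stayed higher in preB than in pre-proB cells, by 0.51 and 0.38, where Fbl of the same particle was lower. Dkc1, Nhp2 and Nop10 did not pass, with 0.11, 0.20 and 0.13. The call of Npm1, 0.23 with an adjusted p of 0.0416 in edgeR, was lost under 7 of 16 alternatives, among them those without pre-proB replicate 1, pre-proB replicate 2 or preB replicate 2. Of the other genes called higher, Dcaf13 was called in 5 of the 16 alternatives, Bop1 in 10, Ltv1 in 12, Bysl and Rrs1 in 14 and Nip7 in 15. The fits that lost these calls included the one without pre-proB replicate 2 for all of them but Bysl, and those without pre-proB replicate 1 or preB replicate 2 for Bysl. Of the 18 genes that did not pass, Wdr43 and Nop2 passed in 8 alternatives, Noc2l in 7, Ddx21 and Nop14 in 6, Nhp2 in 3, and Dkc1, Pwp2 and Nob1 in 1.

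The comparison of Erg-deficient with Erg fl/fl pre-proB cells asks whether the pathway differed between the genotypes in the whole pre-proB gate. Plasmacytoid dendritic-like genes summed there to 13746 and 14697 CPM for Erg fl/fl and 15709.9 and 16219.8 CPM for Erg-deficient libraries. A change confined to the B-lineage cells of the gate was not tested. None of the 46 genes was called (edgeR, 4 pre-proB libraries, 13005 genes), where 1.16% of all genes tested were called. At an unadjusted p below 0.05 there were 6, Ncl, Rrp9, Nop14, Rrp12, Rrp1b and Ppan, all with lower levels in Erg-deficient cells, where 12.5% of all genes tested were at such a p. DESeq2 and limma-voom also called none, with 1 and 6 genes at an unadjusted p below 0.05. The median log2 fold change of the 46 genes was -0.08, beside 0.0055 over all genes tested. Single genes lay between -0.31 and 0.12, with 36 of the 46 below 0. The largest departure from 0 that the 95% intervals allow is -0.57, and for 45 of the 46 genes the whole interval lay within 0.5 of 0 on the log2 scale. The 2 Erg-deficient libraries lay below both Erg fl/fl libraries in 22 of the 46 genes and above both in 4, beside 21.9% and 23.3% of all genes tested. The Erg fl/fl pre-proB libraries are shared with the stage comparisons, so the values of both stand side by side below without a test of their likeness.

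The lowest adjusted p belonged to Ppan, which stood at 36.9 and 36.2 CPM for Erg fl/fl and 30.1 and 30.5 CPM for Erg-deficient libraries. The log2 fold change was -0.28 (95% interval -0.44 to -0.11, adjusted p = 0.147, edgeR), and it was 1.28 from pre-proB to proB cells. Rrp12 (Entrez Gene 107094 on chromosome 19 from 41859483 to 41896153) had the lowest log2 fold change, -0.31 (95% interval -0.57 to -0.06, adjusted p = 0.297, edgeR), with 21.8 and 20.2 CPM for Erg fl/fl and 17.6 and 16.3 CPM for Erg-deficient libraries. In both genes the groups did not overlap. Nop10 (Entrez Gene 66181 on chromosome 2 from 112261926 to 112262898) had the highest, 0.12 (95% interval -0.11 to 0.36), at 34.0 and 33.8 CPM for Erg fl/fl and 33.7 and 40.4 CPM for Erg-deficient libraries, which overlapped.

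For the 2 genes of most counts in each role, log2 fold changes between the genotypes lay between -0.18 and 0.05. Ncl stood at 574 and 528 CPM for Erg fl/fl and 488 and 489.6 CPM for Erg-deficient pre-proB libraries, a change of -0.18 on the log2 scale (95% interval -0.35 to -0.01, adjusted p = 0.377, edgeR). Npm1 stood at 537 and 525 and 504 and 551 CPM in the same order, and Ubtf at 232 and 247 and 247 and 249.7 CPM. Their log2 fold changes were -0.01 (95% interval -0.19 to 0.16) and 0.05 (95% interval -0.10 to 0.20). In the snoRNP proteins Nop56 gave 113 and 114, Nop58 72.3 and 78.4 and Dkc1 73.9 and 73.1 CPM for the Erg-deficient libraries, with log2 fold changes of -0.12, -0.14 and -0.05. Polr1a had 26.9 and 27.5 CPM there, and Nhp2 30.2 and 34.9 CPM, with log2 fold changes of -0.13 (95% interval -0.39 to 0.14) and 0.00 (95% interval -0.22 to 0.22). The assembly factors Wdr43, Heatr1, Noc2l and Pes1 had log2 fold changes of -0.05, -0.09, -0.10 and -0.03. Beside these values, 8 of the 11 B-lineage genes were called lower and 5 of the 8 NK-like genes higher in Erg-deficient cells, with NK-like sums of 201 and 199 CPM for Erg fl/fl and 257 and 383 CPM for Erg-deficient libraries, and T-like sums of 689 and 855 and 1499 and 881 CPM. Their part in the small differences of the 46 genes was not tested.

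**Figure D4:**
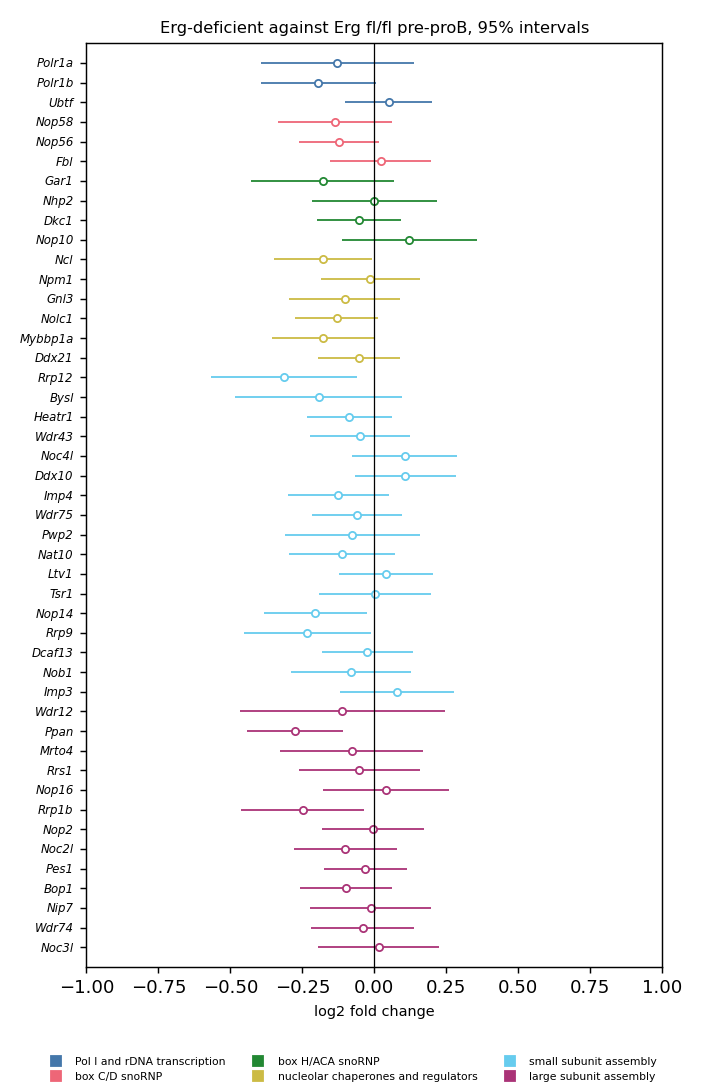
Points are log2 fold changes of the 46 genes in Erg-deficient against Erg fl/fl pre-proB cells and bars are 95% intervals, coloured by role group. All points are open because none passed an adjusted p below 0.05 in edgeR. They lie between -0.31 for Rrp12 and 0.12 for Nop10.

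A wider list of 126 other ribosome biogenesis genes, taken from general knowledge of the pathway, had medians of the same sign as the 46 genes and nearer to 0 at both steps. From pre-proB to proB cells 99 were called higher, 5 lower and 22 did not pass (edgeR), with a median log2 fold change of 0.49, between -1.15 for the helicase Ddx51 and 1.37 for Ruvbl2, an ATPase that helps build box C/D particles. The 5 lower genes were Riok3, Rrp36, Ddx51, Sbds and Nop53. From proB to preB cells 81 were called lower and 14 higher, with a median of -0.34, between -1.52 for the polymerase I subunit Cd3eap and 0.49 for the kinase Riok3. Against pre-proB, preB cells had 67 called higher and 12 lower, with a median of 0.22 beside 0.17 over the 46 genes. Among those with most counts, Nop53, which recruits the exosome to pre-ribosomes, stood at 308 and 302 CPM for pre-proB, 253 and 247 for proB and 306 and 352 for preB libraries. Ddx54, a helicase, rose at both steps, by 0.95 and 0.48 on the log2 scale, and the exonuclease Xrn2 stood at 214 and 221, 236 and 238 and 237 and 234 CPM. None of the 126 was called between the genotypes by edgeR and 3 had an unadjusted p below 0.05, with a median of -0.02.

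Myc had 20.7 and 14.3 CPM for Erg fl/fl pre-proB, 169.6 and 178 for proB, 19.9 and 23.5 for preB and 6.21 and 5.80 for Erg-deficient pre-proB libraries. Its log2 fold changes were 3.34 (SE 0.136) into proB, -2.97 (SE 0.131) into preB and -1.55 (SE 0.208, adjusted p = 0.0293, edgeR) in Erg-deficient pre-proB cells. Mycl had 204 and 207 CPM for Erg fl/fl pre-proB, 3.08 and 3.97 for proB, 2.24 and 1.74 for preB and 222 and 226 for Erg-deficient pre-proB libraries. Mycn had few counts in Erg fl/fl pre-proB libraries, 0.324 and 0.422 CPM, and more in proB libraries, 1.60 and 1.88 CPM. Max did not pass in any comparison. Myc was called lower in Erg-deficient pre-proB cells. None of the 46 ribosome biogenesis genes was called in that comparison, and 36 of them had a log2 fold change below 0. Their median was -0.08, beside 0.0055 over all genes tested, and the share of all genes below 0 was not counted. The sign changed for 16 of the 46 genes under at least 1 alternative. The part of Myc in the levels of the 46 genes was not tested.

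Proliferation genes also had their highest sums in the proB libraries. A list of 24, among them Mki67, Top2a and Mcm2, summed to 2682 and 2948 CPM for pre-proB, 12259 and 12051 for proB and 8404 and 7333 for preB libraries. All 24 were called higher in proB than in pre-proB cells (median log2 fold change 2.14), all 24 lower in preB than in proB cells (median -0.61), and all 24 higher in preB than in pre-proB cells (median 1.51, edgeR). The 46 ribosome biogenesis genes had medians of 0.88, -0.84 and 0.17 in the same comparisons. Between the genotypes none of the 24 was called by edgeR, 3 had an unadjusted p below 0.05, and their sum was 2651 and 2696 CPM for the Erg-deficient libraries. The part of cell division in the levels of the 46 genes was not tested.

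**Figure D5:**
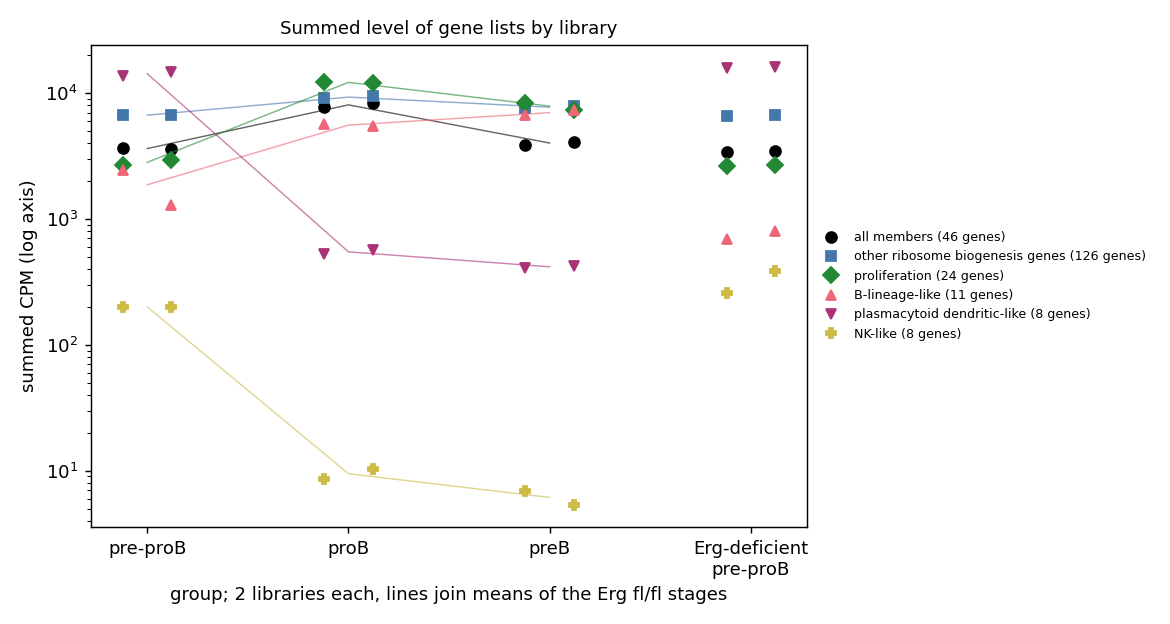
Points are summed CPM of gene lists in single libraries on a log axis, with the 46 ribosome biogenesis genes (all members) in black, and lines join the means of the 3 Erg fl/fl stages. The black points are highest in proB libraries. In Erg-deficient pre-proB libraries, at 3419.8 and 3495 CPM, they lie slightly below those of Erg fl/fl pre-proB, at 3665 and 3576 CPM. The proliferation genes stay high in preB libraries, and the plasmacytoid dendritic-like and NK-like genes are high in pre-proB libraries of both genotypes.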

How the data were processed

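The authors sequenced paired-end RNA libraries, trimmed adapters with Trim Galore, aligned reads to mm10 with STAR, assigned them to Entrez Gene identifiers with featureCounts from Rsubread, and deposited whole-number counts per gene without normalization. Base calls came from CASAVA 1.8.2 per the submitters' processing notes. Strand settings, the handling of reads that map to several genes and the versions of STAR and featureCounts were not given in the sources used here. Symbols and GRCm38.p6 positions came from RefSeq for 25275 of 27179 identifiers. Libraries were grouped by their labels.

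Counts were tested with edgeR 4.0.16 in R 4.3.3 (TMM, glmQLFit in its legacy form, glmQLFTest, Benjamini-Hochberg adjustment over all genes tested), after a filter that kept genes at 0.5 CPM or more in 2 or more libraries. The 6 Erg fl/fl libraries were fitted together for the stages and the 4 pre-proB libraries alone for the genotypes. Standard errors are the log2 fold change over the square root of F, and intervals use the same degrees of freedom as the test. With 2 libraries against 2 an exact permutation test of 1 gene cannot go below p = 0.333. CPM use TMM factors over all 8 libraries, 0.955 to 1.04. At these depths 3 counts are 0.163 to 0.193 CPM, counting error only.

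Alternatives were DESeq2 1.42.0, limma-voom (limma 3.58.1), edgeR's version 4 and robust quasi-likelihood, other scalings and filters, all 8 libraries in 1 fit, a table without immunoglobulin genes, a replicate block, and fits that each omit 1 library. The procedure was run on simulated counts with known fold changes, as a check of the median log2 fold change only. Rates of false and missed calls are not given here. By the naming rule, levels per library are given for the 2 genes of most counts in each role, those called against the majority, and those with the largest changes. Levels of Polr1b, Bop1 and Wdr74 were added after their values were seen. The 46 genes, the pathway lists and the marker lists (B-lineage, early lymphoid progenitor, T, NK, plasmacytoid dendritic, myeloid, erythroid, plasma cell and proliferation) were chosen with earlier results of these data known. One gene of the B-lineage list is not reported here and was left out of its sums and counts. Python 3.11.15 with matplotlib 3.10.9 drew the figures.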

Additional observations from a re-analysis of the deposited data

How the results depend on the processing

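The number of the 46 genes called stayed between 43 and 45 from pre-proB to proB, between 41 and 44 from proB to preB, between 23 and 32 for preB against pre-proB cells, and at 0 between the genotypes, over 16 alternatives each, the lowest counts coming from fits without 1 library. The median log2 fold change from pre-proB to proB was 0.94 with total counts in place of TMM and 0.79 to 0.94 with 1 library left out. From proB to preB it was -0.90 with total counts and -0.95 to -0.79 with 1 library left out. For preB against pre-proB it was 0.13 with DESeq2's size factors, with at least 1 CPM in 2 libraries, with the DESeq2 test and with all 8 libraries in 1 fit, 0.11 without a filter, and 0.066 to 0.22 with 1 library left out. Between the genotypes it was -0.11 with total counts, -0.067 with all 8 libraries and -0.078 to -0.064 with 1 library left out. Genes called between the genotypes, 151 in all, numbered 279 without a filter, 400 with DESeq2, 41 with limma-voom, 88 with edgeR's version 4 method, 442 with all 8 libraries, 265 with the replicate number as a block, and 10 to 401 with 1 library left out (10 without Erg-deficient replicate 2, 401 without Erg fl/fl replicate 2). Replicate numbers were not taken as pairs, since which mouse gave which library is not stated. Replicate differences correlated across genes by 0.119 between pre-proB and proB cells, above the threshold of 0.1 set for pairs. The correlations were 0.0107 between pre-proB and preB cells, 0.0497 between proB and preB cells and 0.0177 between the genotypes. The block did not change the count of the 46 genes between genotypes (0) or at the first (45) and second (44) step, and gave 32 for preB against pre-proB. Where a library was omitted, the one remaining in its group was assumed to vary like the other groups. Of single genes, 2804 of the values over 46 genes, 4 comparisons and 16 alternatives kept their direction and side of the threshold, 57 lost a call and 41 gained one. The other 42 changed sign, in no case from a called value. Given as the range of log2 fold changes with 1 library left out, with other settings that changed the sign in parentheses, they were -0.024 to 0.037 for Ubtf (-0.037 with total counts, -0.016 without a filter, -0.027 with at least 1 CPM) from proB to preB cells, -0.0013 to 0.32 for Pwp2, -0.035 to 0.063 for Wdr75 (-0.0074 without a filter), -0.013 to 0.18 for Nop16, -0.0082 to 0.29 for Mrto4 and -0.0032 to 0.16 for Noc3l for preB against pre-proB cells, and -0.28 to 0.022 for Polr1a, -0.060 to 0.099 for Fbl (-0.013 with total counts), -0.11 to 0.099 for Nhp2 (0.0048 without a filter, 0.011 with all 8 libraries), -0.012 to 0.25 for Nop10, -0.079 to 0.048 for Npm1, -0.20 to 0.054 for Pwp2, -0.13 to 0.023 for Wdr43, -0.019 to 0.17 for Imp3, -0.063 to 0.059 for Tsr1 (-0.00046 with DESeq2's size factors, -0.032 with total counts, -0.00034 in DESeq2), -0.29 to 0.076 for Wdr12, -0.071 to 0.056 for Nop2 (0.0013 without a filter, 0.0073 with all 8 libraries), -0.0064 to 0.079 for Nop16, -0.13 to 0.015 for Rrs1, -0.18 to 0.022 for Mrto4, -0.10 to 0.072 for Nip7 and -0.075 to 0.098 for Noc3l (-0.020 with total counts) between the genotypes. The cause was not tested. With 2 libraries in each group, differences smaller than the intervals given could not be detected at this depth and spread.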

Other observations

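Host genes of small nucleolar RNAs, whose introns carry the guide RNAs of the snoRNPs, were a separate list of 9. All 9 were called higher in proB than in pre-proB cells (edgeR), with log2 fold changes between 0.50 for Gas5 and 2.32 for Snhg3, and 7 were called lower again in preB cells, where Snhg3 and Snhg8 did not pass. Gas5 stood at 241 and 239.8 CPM for pre-proB, 323 and 348 for proB, 189 and 194 for preB and 234 and 234 for Erg-deficient pre-proB libraries. Snhg12 stood at 7.58 and 6.69, 25.7 and 26.8, 15.9 and 14.6 and 6.03 and 5.54 CPM in the same order, and so kept part of its rise in preB cells. Snhg3 was under 1 CPM in every library and was not tested between the genotypes. Of the 8 that were, edgeR called 0, and 1 had an unadjusted p below 0.05.

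Among the partners and antagonists of Myc, Mxd4 had 65.7 and 53.6 CPM for pre-proB, 36.9 and 33.5 for proB and 66.7 and 62.9 for preB libraries, lower in proB (log2 fold change -0.74) and higher again in preB cells (0.92, both called by edgeR). Mxd1 moved the same way, with -0.61 and 0.51, both called. Mxd3 was called higher in proB cells (1.23) and Mxi1 at both steps (0.30 and 0.64).

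Other marker lists gave the following sums. The 6 early lymphoid progenitor-like genes summed to 2137 and 2409 CPM for Erg fl/fl pre-proB, 745 and 752 for proB, 1201 and 1231 for preB and 2508 and 2554 for Erg-deficient pre-proB libraries. In the same order the 8 myeloid-like genes summed to 218 and 173, 162 and 388, 81.4 and 60.9 and 132 and 104 CPM, the 7 plasma cell-like genes to 758 and 792, 1019 and 994, 1199 and 1187 and 673 and 783 CPM, and the 7 erythroid-like genes to 2.85 and 3.68, 20.2 and 23.5, 33.6 and 28.3 and 4.85 and 6.25 CPM.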
